A study of Mus musculus with 12 samples.

Results

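The transcriptomes of Dnmt1 knockout palatal shelves were set against those of vehicle-treated wild type shelves, gene by gene, by RNA sequencing. These are 6 of the 12 libraries of the series, chosen by their labels: 3 of the group with a conditional knockout of Dnmt1, labelled untreated, and 3 wild type libraries given the vehicle of the drug 5-aza-2'-deoxycytidine (AzadC). The other 6 come from untreated wild type controls and from AzadC-treated wild type embryos. All are mouse shelves dissected at gestational day 12, each library from the pooled shelves of 2 embryos of 1 genotype, 6 embryos a group, with no more than 3 embryos of a genotype from a litter and at least 3 litters for each genotype. The series' design text speaks of 3 pooled animals as replicates, so the pools are taken here as the replicates, and a p-value measures the spread between these pools. The sources used here do not give the driver of the Cre recombinase, the deleted exons, or the vehicle's dose, route and time. Genotype and treatment differ together between the groups, so an effect of the deletion and one of the vehicle cannot be told apart from these 6 libraries. The untreated control libraries are therefore given beside them: the knockout libraries serve both comparisons, and the difference between vehicle and control tests whether the choice of wild type group changes a knockout value.

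DNMT1 is the maintenance DNA methyltransferase. After each round of DNA replication it copies methylation at CG pairs onto the new strand, guided by UHRF1, so that dividing cells which lose it lose methylation passively. Methylation of CG-rich promoters is best known for keeping germline genes silent in body cells. The palatal shelves grow out from the maxillary processes as a mesenchyme made mostly of cranial neural crest cells, covered by oral epithelium, and contain vessels, blood, macrophages, nerves and the first cartilage and muscle of the region.

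The level of a gene is given as CPM, read counts relative to the library's total after TMM scaling, and a difference as log2 of knockout over vehicle with its standard error (SE). A gene is called higher or lower where edgeR's quasi-likelihood test gave a Benjamini-Hochberg adjusted p below 0.05 over the 17335 genes tested. Levels of Dnmt1 itself were 201, 179.6 and 191 CPM in knockout shelves, against 452, 451 and 448 CPM with vehicle. No knockout library came near a vehicle library, and the vehicle libraries differed from each other by less than the knockout libraries did. The log2 difference was -1.24 (SE 0.07, edgeR adjusted p = 1.62e-07), a 2.37-fold lower level. In the untreated controls Dnmt1 stood between, at 286, 278 and 258 CPM. The same knockout libraries were thus lower than the controls by a smaller step, -0.52 on the log2 scale (edgeR adjusted p = 0.000369), and the vehicle libraries were higher than the controls by 0.72 (edgeR adjusted p = 0.000286). Which part of the gene was deleted is unknown here, so the origin of the reads left in the knockout was not tested. The other genes of the methylation machinery moved little. Uhrf1, which brings DNMT1 to replicated DNA, differed by 0.12 (edgeR adjusted p = 0.407), and the new-methylation enzymes Dnmt3a and Dnmt3b by -0.10 (adjusted p = 0.297) and 0.02 (adjusted p = 0.956). Of the genes that remove methylation, Tet1 differed by -0.05 (adjusted p = 0.788) and Tet2 fell by 0.38 (SE 0.07, adjusted p = 0.00532).

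The knockout libraries held 16997239 to 22208337 expected counts and the vehicle libraries 15997977 to 31356496, and the first principal component of these 6 libraries carried 80.2% of the variance and separated the groups. The shelf identity of both groups was checked on 10 markers of palatal mesenchyme, none of which was at 0: their summed level was 1320.4, 1689.6 and 1802 CPM in the knockout and 1386, 1783 and 1681 CPM in the vehicle libraries. Muscle markers varied widely within groups, from 71.2 to 462 CPM in the knockout and from 16.6 to 188 CPM in the vehicle libraries. The melanocyte gene Tyr was at 0 in all 6. In bulk tissue, fewer cells of a type and less RNA per cell cannot be told apart.

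Of all genes tested, 1878 (10.8%) differed between knockout and vehicle, 1162 of them (6.7%) higher and 716 (4.13%) lower in the knockout. The 2 directions differed in size more than in number. The higher genes had a median log2 change of 1.29, and 667 (3.85%) were higher by 2-fold or more, 400 by 4-fold or more and 237 by 16-fold or more. The lower genes had a median of -0.45, with 114 (0.658%) lower by 2-fold or more, 18 by 4-fold or more and 1 by 16-fold or more. The higher genes were also the rarer transcripts, with a median level of 10.6 CPM over the 6 libraries against 48.3 CPM for the lower genes and 18.2 CPM for all genes tested. All 3 knockout libraries lay above all 3 vehicle libraries for 1142 of the higher genes, where 16% of all genes tested did so, and below them for 713 of the lower genes, where 14.4% did. In the same knockout libraries against the untreated controls 2473 genes (14.3%) differed, 1358 (7.83%) higher and 1115 (6.43%) lower. In vehicle against control 610 (3.52%) differed, 253 (1.46%) higher and 357 (2.06%) lower. Both counts depend on single libraries: without the second knockout library 716 genes were higher and 294 lower, without the third vehicle library 768 were higher and 369 lower, and without the second vehicle library 474 were lower.

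**Figure D1:**
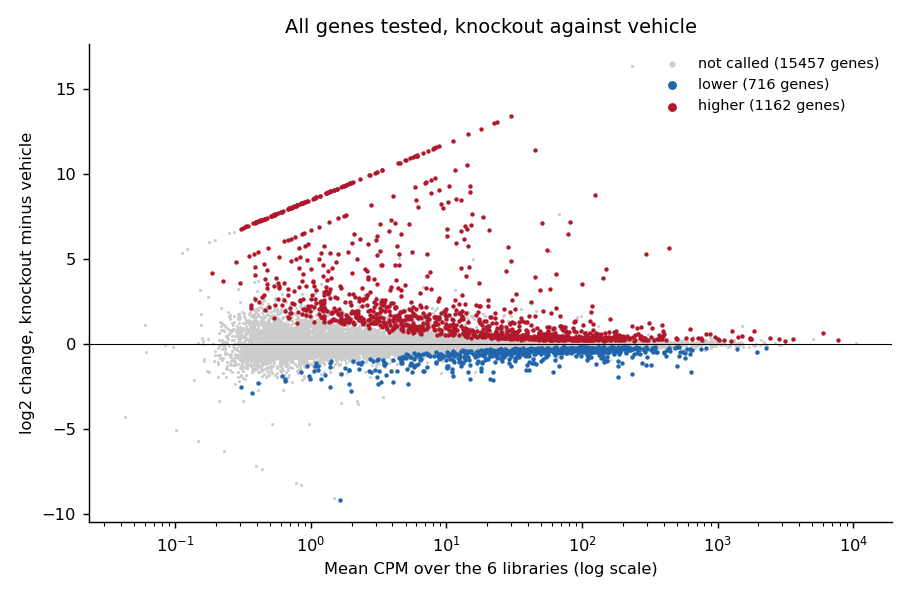
Each point is 1 of the 17335 genes tested, with its mean level over the 6 libraries in CPM (log scale) across and its fitted log2 change, knockout minus vehicle, upward; red are the 1162 higher and blue the 716 lower genes. Red points reach far above the axis at low and middle levels while blue points stay near it; the straight rising line of red points holds genes with 0 vehicle counts, whose fitted change depends on the mean level and the prior count and is no measured fold.

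Among the higher genes, 118 had no count at all in the vehicle libraries. Of all genes tested, 127 had none there. Such genes could pass the filter on low counts only through other groups, so the 118 are a description and no support. The summed level of the 118 was 579.6, 831 and 551 CPM in the knockout libraries, against 7.13, 22 and 19.6 CPM in the untreated controls, and 82 of them were at 0 there too. By the GENCODE annotation, 69 were protein-coding, 28 long non-coding and 20 pseudogenes. Chromosome X held 27 of them and chromosome Y 7, and 24 stood on the germline gene lists described below. In the other direction the only gene without a count in the knockout was Gm2446, an unprocessed pseudogene on chromosome 12, at 3.16, 2.22 and 4.52 CPM in the vehicle libraries. It was also at 0 in all 3 controls, so here the vehicle group stood apart from both others.

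The germline genes were described first by the CG pairs of their promoters, since DNMT1 maintains methylation at CG pairs. Methylation itself was not measured in these libraries. The sequences are RefSeq promoters of mouse build GRCm38.p6, 300 bases from 250 before to 50 after a gene's start, written 5′ to 3′ on the gene's strand with each CG pair in capitals. They belong to 3 of the genes with the largest rise: Dazl (chr17:50293571-50293870, minus strand, 28 CG pairs), Sohlh2 (chr3:55181794-55182093, plus strand, 17 CG pairs) and Mov10l1 (chr15:88982744-88983043, plus strand, 20 CG pairs).
Dazl: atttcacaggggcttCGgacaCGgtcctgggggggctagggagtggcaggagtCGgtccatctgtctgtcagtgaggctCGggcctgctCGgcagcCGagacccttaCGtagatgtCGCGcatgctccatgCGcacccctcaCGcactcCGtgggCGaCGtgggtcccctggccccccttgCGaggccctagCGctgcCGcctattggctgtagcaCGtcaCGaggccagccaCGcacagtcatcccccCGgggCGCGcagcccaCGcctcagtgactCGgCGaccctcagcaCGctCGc
Sohlh2: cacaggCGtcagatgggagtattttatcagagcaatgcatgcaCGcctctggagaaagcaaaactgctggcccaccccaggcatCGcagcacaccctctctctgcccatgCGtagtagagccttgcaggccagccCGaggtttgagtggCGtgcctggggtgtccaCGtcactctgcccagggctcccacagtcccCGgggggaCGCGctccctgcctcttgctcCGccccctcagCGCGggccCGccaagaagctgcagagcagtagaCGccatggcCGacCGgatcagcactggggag
Mov10l1: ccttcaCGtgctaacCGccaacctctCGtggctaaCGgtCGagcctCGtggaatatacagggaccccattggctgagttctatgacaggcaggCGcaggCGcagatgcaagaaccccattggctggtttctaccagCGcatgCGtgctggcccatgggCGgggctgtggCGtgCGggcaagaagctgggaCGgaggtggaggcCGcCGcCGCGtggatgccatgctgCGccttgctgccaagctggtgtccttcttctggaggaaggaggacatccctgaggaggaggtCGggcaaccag

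A promoter was found for 29 of the 34 germline genes that rose, and it held a median of 18 CG pairs (range 8 to 38), with 27 of the 29 (93.1%) holding 10 or more. Similar values came from the 15 listed germline genes that were tested, did not rise and had a promoter in the table, with a median of 20 CG pairs and 93.3% at 10 or more. Across the 12148 genes tested that have a promoter in the table the median was 20 and the share 78.6%, and over all 27025 genes it lists the values were 7 and 43.9%. The 20 X-linked germline family members that rose and have a promoter differed: their median was 7.5 CG pairs, and 4 (20%) held 10 or more. The letters TCCCGC, the core read by E2F6, stood on either strand in 16 (55.2%) of the germline promoters that rose, in 6 (40%) of those that did not, in 34.9% of the tested genes' promoters and in 20% of all promoters. CACGTG, the E-box, stood in 11 (37.9%) of those that rose, in 5 (33.3%) of those that did not, in 9.85% of the tested genes' promoters and in 7.24% of all. These matches describe the letters in the window and not the binding of a factor.

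Of 72 listed germline genes, 51 had enough reads to be tested, and 34 of these (66.7%, beside 6.7% of all genes) were higher and 1 lower, with a median log2 change of 3.40 beside -0.00 over all genes. Of the 51, 14 had 0 vehicle counts and could pass the filter on low counts only through other groups, so the share is a description of those that were measured. Among the regulators of germ cell transcription and RNA, 8 of 12 tested rose. Dazl, an RNA-binding protein that governs translation in germ cells, stood at 67.5, 120.2 and 80.3 CPM in the knockout and at 0, 0 and 0.0807 CPM in the vehicle libraries. The groups were far apart, and the ratio of summed, depth-scaled counts was 3217, with an exact interval from counting error alone of 890.2 to 26573. Sohlh2, a helix-loop-helix factor of early germ cell differentiation, stood at 44, 81.8 and 53.2 CPM against 0 in each vehicle library, at least 1432-fold higher when the vehicle group is given the floor of 3 counts. Ddx4, the germ cell helicase known as Vasa, was present at a low level without the knockout: 0.681, 1.03 and 0.686 CPM in the vehicle and 7.99, 10.1 and 9.18 CPM in the knockout libraries (log2 3.48, SE 0.30, edgeR adjusted p = 5.55e-06). Other listed regulators did not pass the test, among them Nanos3 (log2 -0.81), Brdt (-0.06) and Rbm46 (0.51).

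The piRNA pathway, which silences transposons in germ cells with small RNAs, had 7 of 12 tested members higher (58.3%, beside 6.7% of all genes). Of the 12, 3 had 0 vehicle counts and could pass the filter on low counts only through other groups. Mov10l1, the helicase that starts piRNA processing, stood at 14.7, 19.6 and 13.4 CPM in the knockout and at 0 in every vehicle library, at least 385-fold higher. Fkbp6, a co-chaperone of the pathway, stood at 11.9, 21.3 and 13.2 CPM against 0.0619, 0.0321 and 0 CPM, a ratio of 559. Piwil2, a PIWI protein, rose less, by 4.26 (SE 0.65, edgeR adjusted p = 0.000951), from 0.129 to 0.403 CPM up to 3.79 to 7.23 CPM. The Tudor genes of the list behaved otherwise: Tdrd1 differed by 0.86 (adjusted p = 0.0902), Tdrd9 by 0.51 (adjusted p = 0.476) and Tdrd6 by 0.10 (adjusted p = 0.959).

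Of the genes that pair and hold meiotic chromosomes, 11 of 19 tested (57.9%, beside 6.7% of all genes) rose and 1 (5.26%, beside 4.13%) fell. Of the 19, 4 had 0 vehicle counts and could pass the filter on low counts only through other groups. Stag3, the cohesin subunit of meiosis, had the highest level of those that rose, with 70.7, 83.3 and 62.1 CPM in the knockout and 11.7, 13.5 and 13.3 CPM in the vehicle libraries (log2 2.48, SE 0.13, edgeR adjusted p = 5.32e-08). Its groups did not overlap, and the controls, at a mean of 15.2 CPM, lay close to vehicle. The synaptonemal complex gene Sycp2 rose by 3.82 (SE 0.49, adjusted p = 0.000244), and Hormad1, which marks unpaired axes, stood at 2.24, 4.28 and 3.44 CPM against 0 in the vehicle libraries, at least 78.9-fold higher. Sycp1 was uneven, at 3.38, 12 and 2.49 CPM against 0, and it did not pass against the controls, where the log2 difference was 2.50 (adjusted p = 0.159). The recombination genes Dmc1 (-0.40, adjusted p = 0.389), Msh5 (0.04, adjusted p = 0.948) and Spo11 (0.59, adjusted p = 0.648) did not pass. Of 11 listed germ cell copies of housekeeping genes and other germ cell genes 8 were tested, and all 8 rose. Of the 8, 4 had 0 vehicle counts and could pass the filter only through other groups, so the number is a description and no support. The 8 include Tuba3b, a testis alpha-tubulin, at 37.8, 64.4 and 40.1 CPM against 0 (at least 1143-fold), and Slc25a31, a germ cell ATP/ADP carrier, which rose by 6.78 (SE 0.77, adjusted p = 8.42e-05).

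Meioc, which keeps germ cells in meiotic prophase, went the other way. Its level was 4.7, 7.53 and 5.21 CPM in the knockout, 18.7, 27.8 and 25.2 CPM in the vehicle and 0.865, 1.19 and 0.799 CPM in the control libraries. The 3 groups did not overlap at any point. The log2 difference was -2.04 against vehicle (SE 0.22, edgeR adjusted p = 5.80e-05) and 2.60 against control (adjusted p = 2.37e-05), and vehicle was above control by 4.64 (adjusted p = 7.58e-07). The direction of the knockout difference of Meioc thus depends on the wild type group.

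**Figure D2:**
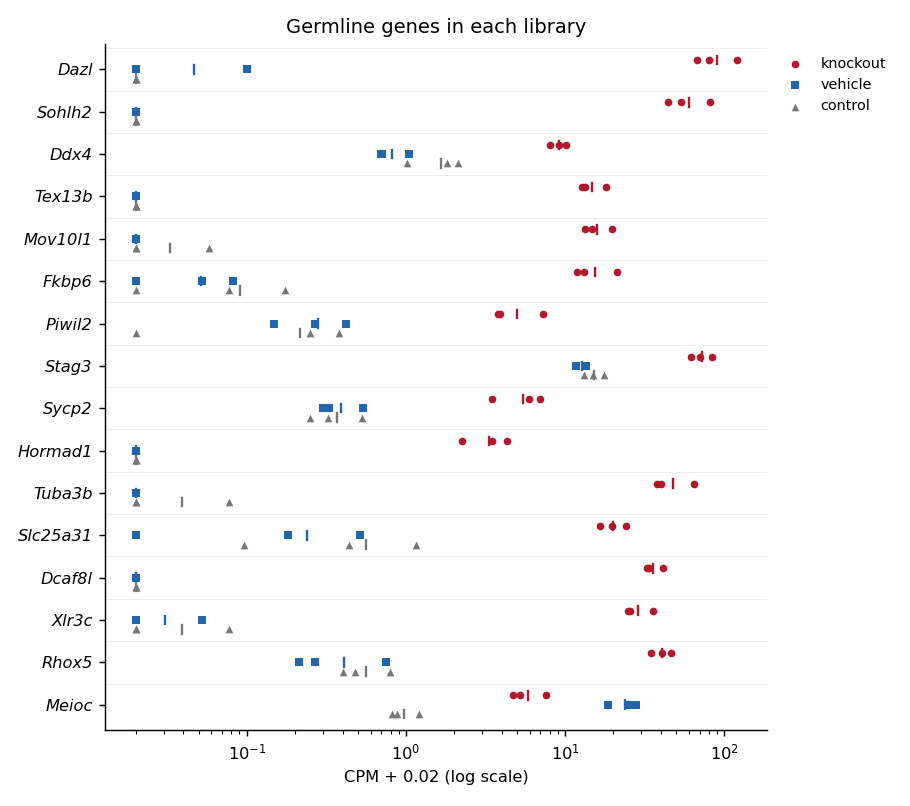
Levels of 16 germline genes in each knockout, vehicle and control library, in CPM with 0.02 added so that zeros can be drawn, on a log scale; short vertical bars are group means. The knockout points lie right of both wild type groups for every gene drawn but Meioc, for which the vehicle libraries are the highest at 18.7 to 27.8 CPM.

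The X-linked germline families form clusters of gene copies on chromosome X that are expressed in testis, placenta or tumours. Of 45 listed members, 23 passed the filter on low counts, and all 23 that passed were higher. Of these, 10 had 0 counts in vehicle and could pass only through other groups, so the number is a description and no support. The Xlr family, related to synaptonemal complex proteins, had 8 members tested. Xlr3c stood at 25.6, 35.4 and 24.7 CPM against 0, 0.0321 and 0 CPM, a ratio of 2069, while its copy Xlr3b was already at 8 to 15.7 CPM in vehicle and rose by 1.87 (SE 0.48, edgeR adjusted p = 0.0247). Reads from such near-identical copies may have been split between them, so the copies' separate levels are uncertain. Rhox5, a homeobox gene of the Rhox cluster, stood at 40.7, 46.5 and 34.4 CPM in the knockout and 0.247, 0.193 and 0.726 CPM in the vehicle libraries (log2 6.68, SE 0.51, edgeR adjusted p = 2.03e-06). Of the 13 Rhox genes listed, 3 were tested. Dcaf8l, at 33.6, 41.1 and 32.7 CPM against 0 in vehicle and control, was at least 863-fold higher. On a per-length scale the germline transcripts reached middle levels, with means in the knockout of 79.3 TPM for Dazl, 47.1 for Tuba3b, 42.8 for Sohlh2, 32.4 for Xlr3c and 13.9 for Dcaf8l.

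Chromosome X as a whole held more of the higher genes. Of 623 X-linked genes tested, 90 (14.4%) were higher, and 64 of 596 (10.7%) when the listed germline genes were left out, beside 1044 of 16399 autosomal genes (6.37%). Of the 90, 27 had 0 vehicle counts and could pass the filter on low counts only through other groups. The X-linked shares are thus a description and no support. The sexes of the pooled embryos are not given, and sex-linked transcripts differed between libraries. Xist stood at 1943, 1879 and 2272 CPM in the knockout and 738, 1306 and 927 CPM in the vehicle libraries, and the groups did not overlap (log2 1.04, SE 0.94, edgeR adjusted p = 0.551). That fit took its spread from all 12 libraries. Xist passed the threshold when only the 6 knockout and vehicle libraries were fitted. The Y-linked Kdm5d ran from 32 to 59.6 CPM and from 30.8 to 52.8 CPM, overlapping widely. Of 16 Y-linked genes tested, 8 (50%, beside 6.7% of all genes) were higher. Chromosome Y held 7 of the higher genes with 0 vehicle counts, which could pass the filter on low counts only through other groups. The Y-linked share is thus a description and no support. When the Y-linked level entered the fit as a covariate, 87 X-linked genes were higher. By gene type, 59 of 601 pseudogenes (9.82%) were higher, beside 983 of 14601 (6.73%) protein-coding and 106 of 1846 (5.74%) long non-coding genes. Of these, 20 pseudogenes, 69 protein-coding and 28 long non-coding genes had 0 vehicle counts. Such genes could pass the filter on low counts only through other groups, so the shares by type are a description and no support.

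The most abundant of the strongly higher genes were picked after their values were seen: 15 genes were higher by 8-fold or more at a mean above 40 CPM over the 6 libraries. Noct, a circadian-regulated phosphatase of NADP(H), stood at 859, 1138 and 592 CPM against 21.9, 12.7 and 17.4 CPM in vehicle (log2 5.66, SE 0.25, edgeR adjusted p = 1.18e-08). Slc38a6, a member of an amino acid transporter family, stood at 236, 317 and 244 CPM against 19.99, 18.3 and 16.1 CPM, and Mnd1, which acts with DMC1 in meiotic recombination, at 90.2, 90.6 and 74.3 CPM against 4.58, 6.65 and 5.16 CPM. For these 3 genes the control libraries lay at the vehicle level, and the vehicle-control differences were -0.08, -0.29 and 0.10. Less characterised loci of similar level were Gm42860 on chromosome 5, which GENCODE lists as still to be tested by experiment, at 239.7, 293 and 216 CPM against 0.495 to 0.605 CPM, and the long non-coding Gm43549 on chromosome 3, at 145, 227 and 111 CPM against 0.996 to 1.25 CPM. The processed pseudogenes among the 15 did not all share this pattern. Gm15459 stood at 566, 599 and 566 CPM in the knockout and 16.4, 9.51 and 19.6 CPM in vehicle, but at 399, 343 and 373 CPM in the controls, so that it was higher than vehicle by 5.27 and than control by 0.63. Gm8730, at 129, 254 and 82.8 CPM, was higher than vehicle by 6.44 and differed from control, at 193 to 256 CPM, by -0.49 (adjusted p = 0.344).

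The integrated stress response held the most higher genes of any list, 39. In this response, kinases that sense amino acid lack, misfolded protein, haem lack or double-stranded RNA slow translation, and the factor ATF4 then raises genes for amino acid uptake, synthesis and tRNA charging. Its targets can carry a C/EBP-ATF element, whose core was searched for here as TTGCATC. Of 52 genes tested, 39 (75%, beside 6.7% of all genes) were higher and 1 (1.92%, beside 4.13%) lower, with a median of 0.62. The count of lower genes was 0 with no filter, without the third vehicle library or without any 1 of the knockout libraries. By DESeq2 it was 2. The promoters of Fgf21 (chr7:45615441-45615740, minus strand) and Chac1 (chr2:119350992-119351291, plus strand) are shown with the core in capitals because they are among the strongest risers of the list that carry it. The core starts 139 and 193 bases before the start of the gene.
Fgf21: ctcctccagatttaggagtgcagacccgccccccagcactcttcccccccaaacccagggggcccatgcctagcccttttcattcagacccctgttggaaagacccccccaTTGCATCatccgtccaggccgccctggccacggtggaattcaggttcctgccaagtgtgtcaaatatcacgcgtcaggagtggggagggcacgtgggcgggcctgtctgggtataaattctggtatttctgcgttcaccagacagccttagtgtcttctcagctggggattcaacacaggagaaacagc
Chac1: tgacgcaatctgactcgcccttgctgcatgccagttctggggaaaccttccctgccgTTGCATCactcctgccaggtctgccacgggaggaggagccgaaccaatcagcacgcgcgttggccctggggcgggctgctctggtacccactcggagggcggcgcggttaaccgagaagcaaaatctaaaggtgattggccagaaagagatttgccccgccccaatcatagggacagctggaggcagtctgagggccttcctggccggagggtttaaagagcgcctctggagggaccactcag

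The core stood on either strand in 11 of the 29 promoters found for the higher genes of the list (37.9%), beside 4.38% of the promoters of all higher genes, 1.93% of the tested genes and 2.51% of all promoters. Those 11 genes were Atf3, Nupr1, Chac1, Slc7a11, Slc1a4, Pycr1, Aars, Iars, Tars, Yars and Fgf21. Transcription factors and feedback genes were higher for 8 of 12 tested. Chac1, which breaks down glutathione, stood at 7.86, 12 and 5.93 CPM against 0.309, 0.225 and 0.484 CPM in vehicle (log2 4.65, SE 0.40, edgeR adjusted p = 5.92e-06). The groups were well apart, and the stress factors Atf3 (1.92), Nupr1 (3.82) and Atf5 (2.06) rose with it. Atf4 itself, which is controlled mainly in translation, stood at 200.4, 189 and 174 CPM against 150.4, 172 and 138 CPM, apart in every library but short of the threshold (0.29, adjusted p = 0.0601). The liver and stress hormone Fgf21 was at 1, 1.57 and 0.711 CPM against 0 in vehicle and control, at least 26.8-fold higher than vehicle.

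Amino acid transporters were higher for 7 of 10. Slc7a5, the light chain of the leucine carrier, stood at 111, 114 and 86.8 CPM against 24.4, 26.5 and 20.7 CPM (log2 2.12, SE 0.13, edgeR adjusted p = 2.15e-07), and its heavy chain Slc3a2 rose by 0.95. The arginine and lysine carriers Slc7a3 and Slc7a1 rose by 4.46 and 1.52. Slc7a11, the cystine carrier, stood at 18.4, 10.3 and 12.7 CPM against 2.1, 1.19 and 1.29 CPM in vehicle, but at a mean of 8.42 CPM in the controls. Its difference was 3.21 against vehicle (adjusted p = 1.07e-05) and 0.71 against control (adjusted p = 0.0837), and vehicle was below control by -2.49 (adjusted p = 0.000976). Of the synthesis genes 9 of 13 were higher and 1 lower. Asns, asparagine synthetase, stood at 82.9, 93.7 and 70.1 CPM against 24.4, 19.5 and 19.9 CPM (1.96, adjusted p = 3.89e-07). The serine and one-carbon genes Psat1, Mthfd2 and Aldh1l2 rose by 1.19, 1.29 and 1.90. Of the tRNA synthetases, with the tRNA exporter Xpot, 12 of 13 rose, each by a small step: the median was 0.32 and the largest was Cars at 0.74. Against the untreated controls 40 of the 52 genes were higher and 2 lower, beside 7.83% and 6.43% of all genes. Slc7a11 was the 1 list member that differed between vehicle and control.

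**Figure D3:**
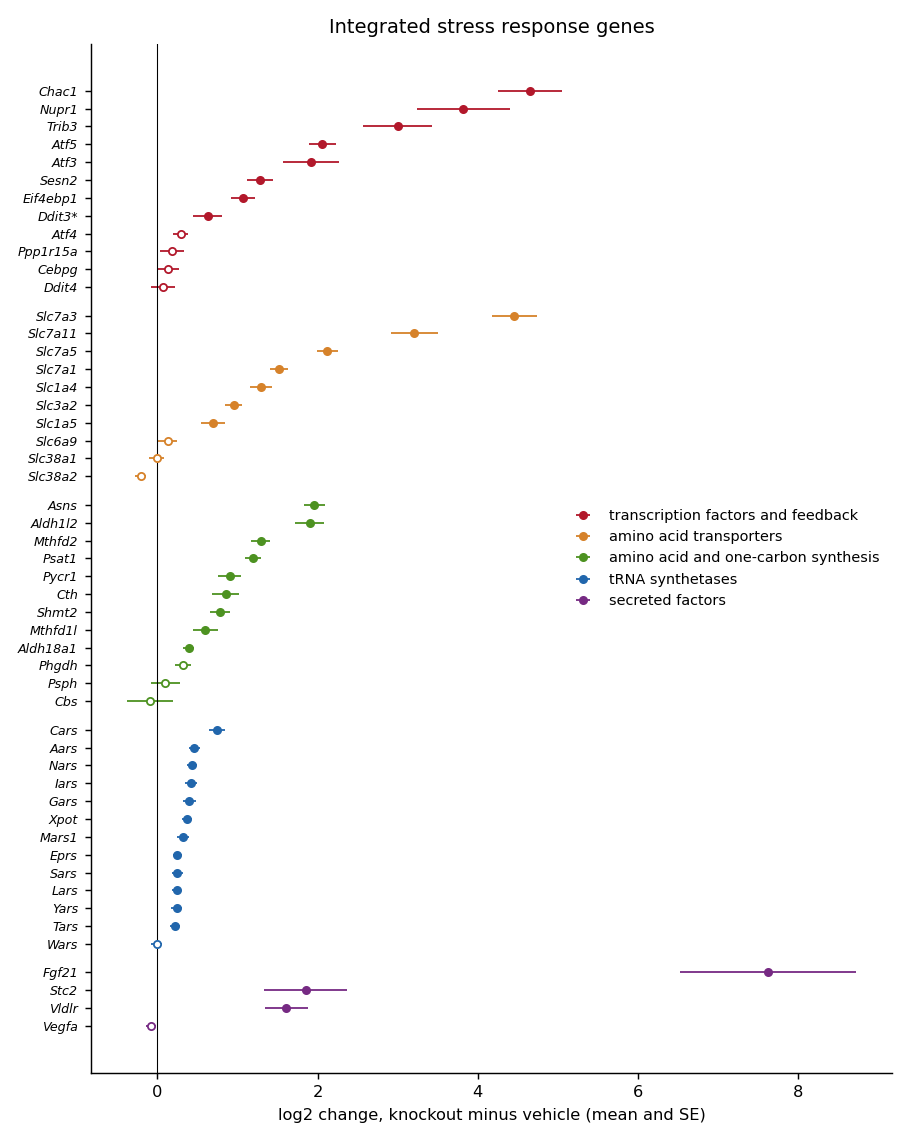
Log2 change, knockout minus vehicle, with its standard error for 51 of the 52 tested genes of the integrated stress response, coloured by role. The 1 gene called lower, of amino acid and one-carbon synthesis, is not drawn. Filled circles passed an adjusted p of 0.05 and open circles did not. Most roles spread to the right of 0 and the tRNA synthetases form a tight column at or below 0.74; Fgf21 had 0 vehicle counts, so its fitted change is no measured fold, and the asterisk at Ddit3 marks a symbol that 2 gene models share in the annotation.

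Chaperones of the endoplasmic reticulum rose by smaller steps. Of 27 tested, 12 (44.4%, beside 6.7% of all genes) were higher, with a median of 0.29. Canx, the lectin chaperone calnexin, stood at 486, 514 and 452 CPM against 332, 291 and 336 CPM (0.60, SE 0.06, edgeR adjusted p = 5.91e-05), and Herpud1, of protein degradation at the membrane, rose by 0.75. Against the controls 4 of the 27 were higher (beside 7.83% of all genes), the 2 named among them. Without the second knockout library 7 were higher than vehicle. Of 11 heat shock genes 6 (54.5%, beside 6.7% of all genes) were higher. Among them were the mitochondrial chaperonin pair Hspd1 (0.46) and Hspe1 (0.62) and the cytosolic Hsp90aa1 (0.59). Of 40 p53 target genes 7 (17.5%, beside 6.7% of all genes) were higher and 1 (2.5%, beside 4.13%) lower, with a median of 0.21. Ccng1 stood at 48.6, 71.4 and 49.6 CPM against 32, 23.3 and 25.1 CPM (1.08, SE 0.16, adjusted p = 0.000765), and the death receptor Eda2r rose by 2.25 (SE 0.33, adjusted p = 0.000666). Cdkn1a, the p21 inhibitor, stood at 35.7, 29.3 and 15.7 CPM against 7.8, 17.3 and 6.78 CPM, with the groups overlapping (1.33, adjusted p = 0.0365).

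Macrophage genes were higher for 34 of 46 tested (73.9%, beside 6.7% of all genes), with a median of 1.58. Csf1r, the growth factor receptor on which tissue macrophages depend, stood at 101, 89 and 86.5 CPM in the knockout and 31.7, 22.7 and 24.8 CPM in the vehicle libraries. The groups did not overlap (log2 1.81, SE 0.13, edgeR adjusted p = 1.53e-06). The surface receptor Adgre1, known as F4/80, rose by 2.21, the microglia and macrophage receptor Cx3cr1 by 1.57 and the adaptor Tyrobp by 2.25. Mpeg1, a pore-forming protein of phagocytes, stood at 50.4, 50.9 and 55.2 CPM against 12, 7.55 and 7.3 CPM (2.56, SE 0.20, adjusted p = 2.03e-06). Complement C1qa rose by 2.31, the lipid carrier Apoe by 2.22 and the lectin Lgals3 by 3.73. The 6 defining macrophage markers, none of which was at 0, summed to 224 to 249 CPM in the knockout, 56 to 76.5 CPM in vehicle and 44.2 to 63.7 CPM in control. Genes of other leukocytes could not be compared well, as 1 vehicle library held most of their reads. The 13 listed summed to 1.46, 1.87 and 5.87 CPM in the knockout and to 2.41, 41.5 and 2.82 CPM in the vehicle libraries. Of 6 tested, 0 passed edgeR's test in either direction, and DESeq2 also called 0. By the unadjusted p (below 0.05) 0 were higher and 2 lower, beside 13.5% and 11.4% of all genes tested. With no filter 4 of the list were lower, and 1 when the 6 libraries were fitted alone. Whether there were more macrophages or more RNA of these genes in each was not tested.

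Immune response genes moved less. Of 55 interferon response genes 7 (12.7%, beside 6.7% of all genes) were higher and 1 (1.82%, beside 4.13%) lower, with a median of 0.16. Of the 10 genes for class I antigen presentation 4 were higher. The smallest adjusted p was that of B2m, the light chain of the class I molecule, at 96.9, 96.3 and 97.1 CPM against 59.9, 54.3 and 55.3 CPM (0.78, SE 0.08, edgeR adjusted p = 5.57e-05). The lower gene was Ifih1, the double-stranded RNA sensor MDA5, at 4.61, 3.89 and 4.5 CPM against 10.5, 8.1 and 6.53 CPM (-0.94, adjusted p = 0.0398). Ifih1 no longer passed by limma-voom, with the replicate block, with the Y-linked covariate, or without the first vehicle library or any 1 of the knockout libraries. Without the first vehicle library 12 genes of the list were higher, and without the second vehicle library 4.

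The palate and facial regulators carried the largest set of lower genes among the developmental lists. Of 79 tested, 19 (24.1%, beside 4.13% of all genes) were lower and 3 (3.8%, beside 6.7%) higher, with a median of -0.04. Without the second knockout library 11 were lower and 1 was higher, 1 was also higher without the first or the third vehicle library, and 6 were without the first knockout library. Forkhead factors of the facial mesenchyme were lower for 6 of 10. Foxf2, a Hedgehog-responsive factor needed for palate growth, stood at 106, 77.3 and 111 CPM against 159, 181 and 193 CPM (-0.86, SE 0.13, edgeR adjusted p = 0.000949). Foxp2 stood at 88.4, 67.8 and 77.8 CPM against 187, 160.1 and 175 CPM (-1.16, SE 0.12, adjusted p = 5.54e-05). Neither gene had a knockout library within the vehicle range. Foxc2 (-1.60), Foxd2 (-1.50), Foxc1 (-0.99) and Foxp1 (-0.49) were also lower.

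Of the neural crest and mesenchymal transition factors 6 of 13 were lower. Sox9, which directs crest and cartilage fate, stood at 30.8, 23.6 and 33.3 CPM against 91.4, 89.1 and 97 CPM (-1.66, SE 0.18, edgeR adjusted p = 6.12e-05). Zeb2 (-0.81), Snai1 (-1.03), Twist1 (-0.63) and Twist2 (-0.93), repressors and helix-loop-helix factors of the mesenchymal state, were lower as well. Pdgfra, the growth factor receptor of facial mesenchyme, stood at 459, 443 and 484 CPM against 598, 689 and 664 CPM (-0.49, adjusted p = 0.00322). Other members did not pass, among them Snai2 (0.04, adjusted p = 0.857) and Sox11 (-0.05, adjusted p = 0.88). Among the signals and receptors tied to clefting, Fgfr2 was lower by -1.04 (SE 0.18, adjusted p = 0.00206) and Tgfb3 by -0.28 (adjusted p = 0.0381), while Bmp4 (0.69) and Tgfbr2 (0.33) were higher. The homeobox factor Msx1 stood at 4.93, 30.4 and 27.4 CPM against 2.72, 2.7 and 1.61 CPM, apart in every library but short of the threshold (3.16, adjusted p = 0.061). The palatal mesenchyme factors Osr2 (0.41, adjusted p = 0.485) and Pax9 (0.21, adjusted p = 0.443) did not pass.

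Signalling targets moved in both directions, where 6.7% of all genes were higher and 4.13% lower. Of 16 Hedgehog pathway genes 5 (31.2%) were lower and 3 (18.8%) higher. Gli1, the target most often used as a readout of the pathway, stood at 149, 155 and 165 CPM against 216, 222 and 225 CPM (-0.50, SE 0.07, edgeR adjusted p = 0.000357). The receptor and target Ptch1 stood at 344, 307 and 338 CPM against 477, 472 and 488 CPM (-0.54, adjusted p = 0.0024), and Foxl1 was lower by -1.31 (adjusted p = 0.0017). The co-receptors Gas1 (0.83) and Cdon (1.01) and the decoy receptor Hhip (1.03) were higher. Against the controls Ptch1 differed by -0.18 (adjusted p = 0.223), Foxl1 by -0.43 (adjusted p = 0.222) and Gas1 by 0.06 (adjusted p = 0.859). Vehicle and control themselves differed for Foxl1 (0.88, adjusted p = 0.0382) and Gas1 (-0.77, adjusted p = 0.0284). Of 28 BMP and TGF-beta targets 6 (21.4%) were lower and 1 (3.57%) higher, with Id2 at -0.58, Smad9 at -1.05 and the BMP-binding Bmper at -1.66. Of 20 Wnt targets 5 (25%) were lower, among them the secreted Wnt inhibitors Sfrp1 (-0.62) and Sfrp2 (-0.69), and 2 (10%) higher, Apcdd1 (0.65) and Dkk1 (1.57). Of 18 targets of FGF and ERK signalling 4 (22.2%) were higher, with Spry4 at 0.81, Etv4 at 0.73, Dusp14 at 1.14 and Egr1 at 1.83. These last 3 counts rest on few libraries. Without the third vehicle library 3 BMP and TGF-beta targets and 0 Wnt targets were lower and 2 FGF targets higher; without the second knockout library the numbers were 3, 2 and 2. Leaving out any other library gave 2 or 3 lower Wnt targets, and 3 lower BMP and TGF-beta targets came without the third knockout or the second vehicle library.

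Cartilage genes were lower for 5 of 28 tested (17.9%, beside 4.13% of all genes), with a median of -0.49. Col2a1, the main collagen of cartilage, stood at 403, 214 and 302 CPM against 947, 1053 and 928 CPM (-1.67, SE 0.31, edgeR adjusted p = 0.00376). Col9a1, which coats its fibrils, stood at 98.7, 56.5 and 73.1 CPM against 319, 292 and 271 CPM (-1.95, SE 0.35, adjusted p = 0.00296), and the cartilage factor Sox5 was lower by -1.56. These 3 genes had no knockout library within the vehicle range. The 4 defining cartilage markers summed to 239 to 435 CPM in the knockout and 1029 to 1147 CPM in vehicle. Against the controls, whose cartilage markers ran from 668 to 1969.9 CPM, 18 of the 28 were lower, beside 6.43% of all genes. Against vehicle 3 were lower without the second or the third knockout library or without the second vehicle library, and 12 when the 6 libraries were fitted alone.

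**Figure D4:**
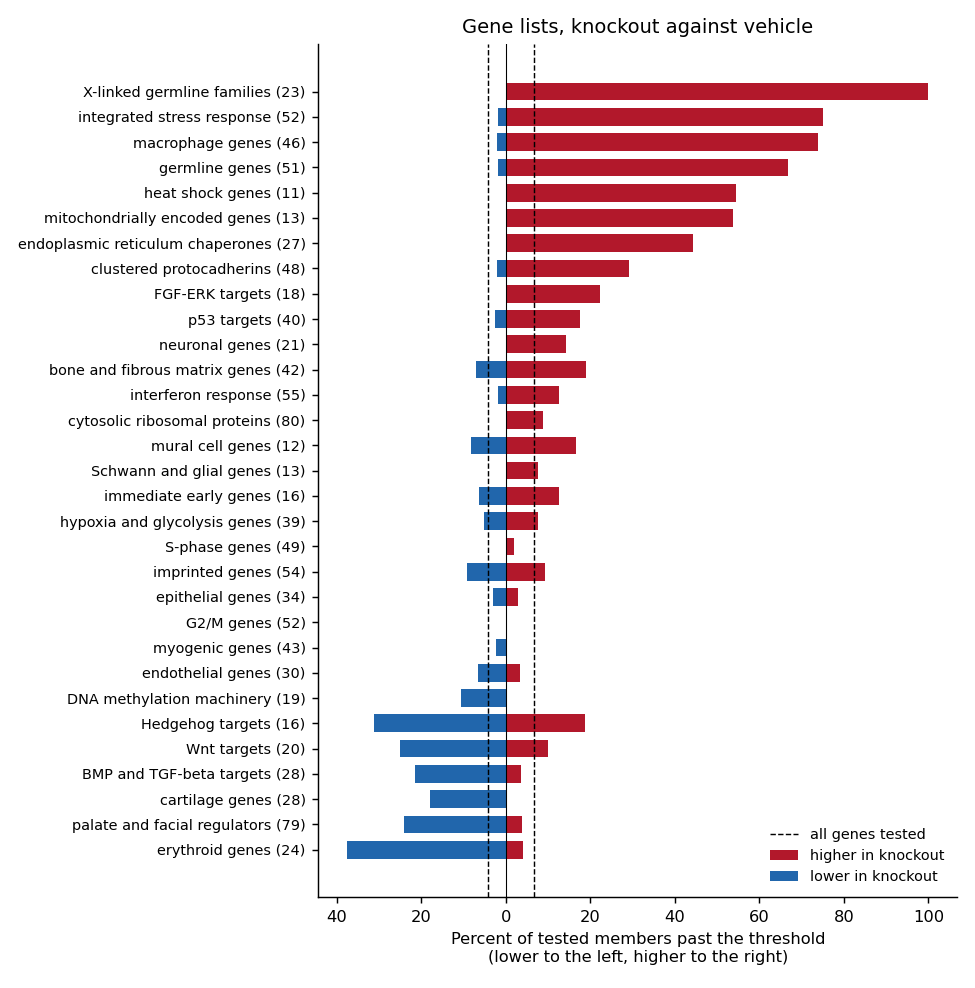
Percent of the tested members of each gene list that were called higher (red, to the right) or lower (blue, to the left) in knockout against vehicle, with the number tested in brackets; dashed lines mark the shares over all 17335 genes, 6.7% and 4.13%. Germline, stress response and macrophage lists stand far right of the dashed line, palate regulators and red cell genes extend to the left, and the G2/M list shows no bar; 14 of the 51 germline genes and 10 of the 23 X-linked family members tested had 0 vehicle counts.

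Several groups gave another picture here than against the untreated controls. Red cell genes were lower for 9 of 24 (37.5%, beside 4.13% of all genes) and higher for 1 (4.17%, beside 6.7%), with a median of -0.80. Without the second knockout library 5 were lower. The embryonic globin Hbb-bh1 stood at 150.2, 77.9 and 85 CPM in the knockout and 437, 358 and 294 CPM in the vehicle libraries (-1.80, SE 0.28, edgeR adjusted p = 0.00109), while the controls had a mean of 92.3 CPM. The knockout value was thus near control (0.18, adjusted p = 0.739), and vehicle was above control by 1.97 (adjusted p = 0.00382). Hemgn (-2.34) and the red cell factor Gata1 (-1.75) were lower than vehicle likewise, and differed from control by 0.61 and -0.14 (adjusted p = 0.446 and 0.852). Of the 24 genes, 10 were higher in vehicle than in control, where 1.46% of all genes were. The 5 defining red cell markers summed to 1793 to 2828 CPM in the knockout and 3039.9 to 4281 CPM in vehicle, apart from each other, and to 1599 to 4345 CPM in the controls.

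Bone and fibrous matrix genes were higher for 8 of 42 (19%, beside 6.7% of all genes) and lower for 3 (7.14%, beside 4.13%), with a median of 0.24. Postn, periostin of fibrous mesenchyme, stood at 364, 541 and 679 CPM against 175, 302 and 263 CPM in vehicle (1.10, SE 0.27, edgeR adjusted p = 0.0187), and at a mean of 964 CPM in the controls. The type I collagen gene Col1a1 stood at 509, 486 and 495 CPM against 184, 389 and 313 CPM in vehicle and a mean of 613 CPM in control. For both genes the knockout lay between the 2 wild type groups. Their difference from control was -0.87 (adjusted p = 0.0448) and -0.30 (adjusted p = 0.357), and vehicle was below control by -1.96 (adjusted p = 0.00362) and -1.05 (adjusted p = 0.016). Over the list, 1 gene was higher and 15 lower in knockout against control, beside 7.83% and 6.43% of all genes. In vehicle against control 20 were lower, beside 2.06% of all genes. The count of 8 rests on few libraries: it was 5 without the first knockout library, 2 without the second and 3 without the third, and 3 without the first vehicle library and 1 without the third. The basal keratin Krt5 had the same order, at 8.63, 5.41 and 12.1 CPM in the knockout, 1.79, 2.35 and 2.46 CPM in vehicle and a mean of 12.6 CPM in control.

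The cell cycle lists differed between the references in the other way. None of 52 genes of G2 and mitosis passed in either direction by edgeR, none had an unadjusted p below 0.05, and DESeq2 also called 0. Their log2 changes ran from -0.18 to 0.19 with a median of -0.00. Ccnb1, the mitotic cyclin, stood at 202, 239.7 and 228 CPM against 225, 168 and 194 CPM (0.19, adjusted p = 0.278). Against the controls 34 of the 52 were higher (beside 7.83% of all genes), with a median of 0.30. In vehicle against control 20 were higher (beside 1.46% of all genes), also with a median of 0.30. Of 49 S-phase genes 1 (2.04%, beside 6.7% of all genes), the clamp loader Rfc5, was higher than vehicle (0.23, edgeR adjusted p = 0.0411). Against control 10 were higher, beside 7.83% of all genes. Rfc5 no longer passed without the second or the third library of either group.

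Transcripts of the mitochondrial genome were higher for 7 of 13 (53.8%, beside 6.7% of all genes), with a median of 0.31. mt-Nd6, on the light strand, stood at 286, 292 and 294 CPM against 176, 218 and 199.8 CPM (0.55, SE 0.11, edgeR adjusted p = 0.0056), with the controls at a mean of 276 CPM. Against control the median of the 13 genes was 0.07. The count of 7 fell to 1 without the second or the third library of either group. Clustered protocadherins are the adhesion proteins of which cells choose sets by promoter methylation. Of 48 tested, 1 (2.08%, beside 4.13% of all genes) was lower and 14 (29.2%, beside 6.7%) were higher. The beta cluster held 12 of these among its 21 tested genes, with a median of 0.73. Pcdhb5 stood at 8.36, 8.22 and 7.11 CPM against 3.34, 3.05 and 3.91 CPM (1.20, SE 0.18, adjusted p = 0.000765). Against control 3 of the 21 were higher, beside 7.83% of all genes. The count of 14 fell to 6 without the second knockout library and to 9 without any 1 of the vehicle libraries.

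**Figure D5:**
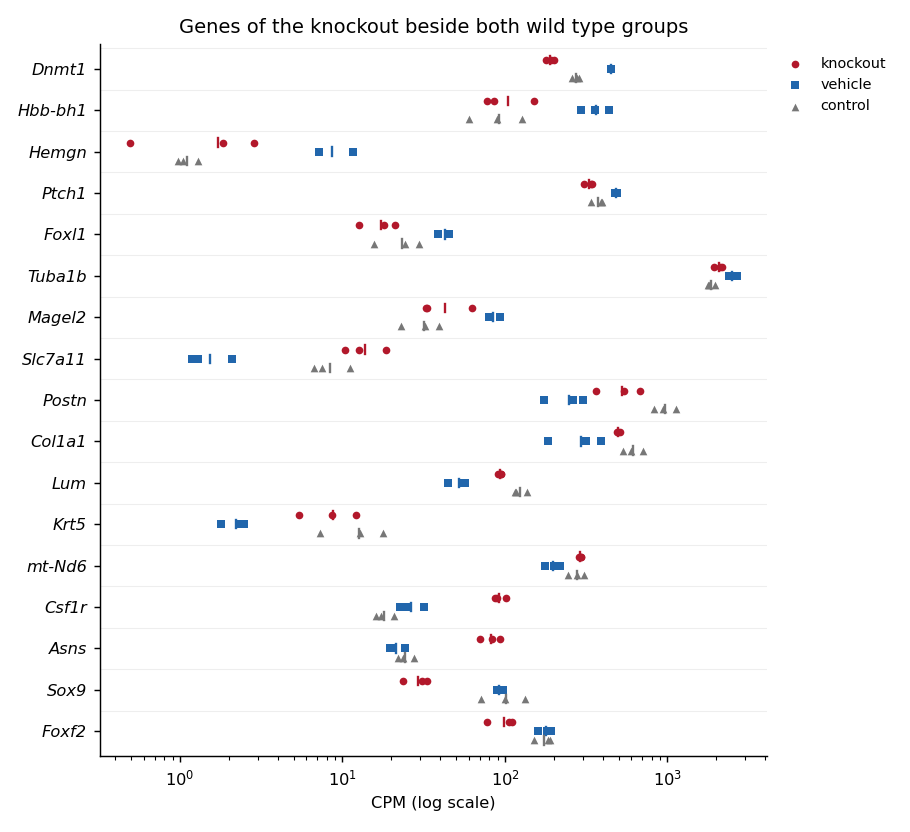
Levels of 17 genes in each knockout, vehicle and control library in CPM on a log scale, with short vertical bars for group means. For Hbb-bh1, Hemgn, Ptch1 and Foxl1 the control points lie near the knockout, for Postn, Col1a1 and Lum the control lies on the far side of the knockout from vehicle, and for Csf1r, Asns, Sox9 and Foxf2 vehicle and control lie close together.

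Imprinted genes keep methylation from the parental germ cells. Of 54 tested, 5 (9.26%, beside 6.7% of all genes) were higher and 5 (9.26%, beside 4.13%) lower, with a median of 0.03. H19, the maternally expressed non-coding RNA, stood at 8561, 7182 and 6285 CPM against 4445, 5092 and 4614 CPM (0.64, SE 0.12, edgeR adjusted p = 0.00461). The paternally expressed Mest stood at 1466, 1777 and 1507 CPM against 1025, 925 and 905 CPM (0.73, SE 0.08, adjusted p = 6.35e-05), and Peg10 rose by 0.73 (adjusted p = 0.0238). The growth inhibitor Grb10 was lower, at 1705, 1600.2 and 1663 CPM against 2304, 2244 and 2273 CPM (-0.46, SE 0.06, adjusted p = 0.000226). All 4 genes had groups that did not overlap. Without the third vehicle library 3 imprinted genes were higher and 3 lower, and without the second knockout library 3 were higher. Magel2 was lower than vehicle by -0.97 (adjusted p = 0.0283) and not called against control (0.44, adjusted p = 0.302).

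Among the called genes that the naming rule allows (above 1 CPM, groups apart, no predicted genes or pseudogenes), the lowest log2 changes were those of the adhesion gene Cdh9 (-2.78), the potassium channel gene Kcnd2 (-2.53) and Hemgn. Gdf10, a BMP-related ligand, stood at 8.54, 6.05 and 10.3 CPM against 28.3, 43.3 and 35.4 CPM (-2.12, SE 0.44, edgeR adjusted p = 0.00705). Nr5a2, a nuclear receptor, stood at 9.18, 6.3 and 9.07 CPM against 30.2, 33.9 and 37.9 CPM (-2.06, SE 0.33, adjusted p = 0.00129). Both were clear of the vehicle range. Against control they were lower by -3.07 and -2.01, so neither turned with the reference. At the abundant end the differences were small. The tubulins Tuba1b and Tuba1a were lower by -0.27 and -0.31 than vehicle and differed from control by 0.17 (adjusted p = 0.147) and 0.01 (adjusted p = 0.95). The chaperone Hsp90ab1 was higher than vehicle by 0.30 (adjusted p = 0.00429) and than control by 0.61.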

How the data were processed

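RNA sequencing libraries were made from total RNA with a NuGen mRNA kit, per the labels' protocols. The deposited expected counts and TPM per gene came from the authors' use of RSEM 1.3.1 with STAR 2.7.0 on mm10, with FastQC, Trim Galore and DESeq2 also listed, per the submitters' processing notes. The sources used here do not give the settings of these tools or the annotation release. Of the 56691 gene IDs, 91.9% matched GENCODE M21, from which gene types were taken, and 77.6% to 81.4% of each library's nonzero expected counts were whole within 0.005.

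Expected counts were rounded. Genes were filtered by filterByExpr and libraries scaled by TMM, and a quasi-likelihood model with 1 mean for each of the 4 groups was fitted over all 12 libraries in edgeR 4.0.16 (R 4.3.3), leaving 8 residual degrees of freedom. The common biological coefficient of variation was 0.152. The contrasts were knockout minus vehicle, knockout minus control and vehicle minus control, with Benjamini-Hochberg adjustment over 17335 genes. A standard error is the log2 change over the square root of F. A group at 0 was given a floor of 3 counts over the group, and ratios with 1 to 3 counts carry an exact 95% interval; both cover counting error only. TPM were used only to set levels of different genes beside each other. On simulated counts for this comparison, 67, 67 and 66 genes were changed by 1.5-, 2- and 4-fold in 1 run. Of these, 37.3%, 53.7% and 74.2% were recovered, and 3.51% of calls were false. Far fewer genes were changed there than were called in the data, so these values are not the power or error rate of the reported comparison.

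Gene lists (34, with 1179 genes, of which 8 symbols were not matched), their members and the tests were chosen with earlier results of these data known. Genes were named by this rule: 5 methylation genes (Dnmt1, Uhrf1, Tet1, Dnmt3a and Dnmt3b); the 12 highest and 12 lowest called changes above 1 CPM with groups apart; the 5 most abundant called genes in each direction; from each list the called members of smallest adjusted p, 4 at most, or 2 where none was called; and the 6 called genes in each direction with the largest opposite and called vehicle-control difference. Predicted genes, pseudogenes, Xist and Y-linked genes were left out of all but the first and the list part. Other list members are named as examples of their role, chosen after their values were seen, as were the 15 abundant genes. Promoters are from RefSeq, build GRCm38.p6.

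Replicate numbers were checked for pairing. Same-numbered knockout and vehicle libraries deviated from their group means with correlations of -0.0372, 0.0269 and 0.154. Libraries of different number had correlations from -0.149 to 0.12. With 3 libraries a group this cannot decide whether the numbers pair the samples, and no pairing was assumed. Alternatives were DESeq2 1.42.0, limma-voom (limma 3.58.1), RLE scaling, no filter, only the 6 libraries, the replicate block, a Y-linked covariate and leaving out each library. Some list members are not reported here.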

Additional observations from a re-analysis of the deposited data

How the results depend on the processing

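Genes higher numbered 716 to 1008 and genes lower 294 to 620 when 1 library was left out, with the lowest values without the second knockout library; by the other settings they numbered 1071 to 1524 and 619 to 932. The same omissions gave 7 to 13 higher chaperones of the endoplasmic reticulum, 11 to 19 lower palate regulators, 1 to 8 higher bone and fibrous matrix genes (15 with no filter), 5 to 10 lower red cell genes and 6 to 11 higher protocadherins. Fewer samples then entered each fit; beyond that the cause was not tested. Germline genes higher ranged from 31 to 35, stress response genes from 31 to 38 and macrophage genes from 32 to 34. Dnmt1 ranged from -1.28 to -1.20. Dnmt3b ranged from -0.04 to 0.09, turning to -0.04 without the second knockout library, to -0.03 without the second vehicle library and to -0.01 without the third; S100a8 ranged from -4.67 to 1.92, turning without the second vehicle library. With no filter 21 muscle genes were higher, and none in the reported fit.

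With the replicate number as a replicate block, Dnmt1 was at -1.24 (edgeR adjusted p = 1.91e-06), 1071 genes were higher and 619 lower, and 6 of 146 named genes no longer passed. As the numbers are not known to pair the samples, this is a change of model and not a paired result. Of the named genes, 109 to 131 kept direction and call under each omission and 135 to 146 under the other settings. At these depths low genes with 0 vehicle counts have only a lower bound on their fold.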

Other observations

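Skeletal muscle genes had the highest median of the lists with no gene called higher. Of 43 tested, 0 were higher by edgeR, 10 at an unadjusted p below 0.05 (beside 13.5% of all genes tested), and 1, Dmd, was lower (-1.15, SE 0.16, edgeR adjusted p = 0.000566), with a median of 1.59. Their summed level was 2185, 1129.6 and 551 CPM in the knockout and 372, 1045 and 313 CPM in the vehicle libraries, so the groups overlapped. In the control libraries it was 483, 389 and 339.6 CPM. Against the controls 24 of the 43 were higher (beside 7.83% of all genes) and 1 lower, with a median of 3.04. In vehicle against control 0 were called, with a median of 1.53. Against vehicle 21 were higher with no filter, 13 without the second vehicle library and 0 by DESeq2.

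Other tissue lists moved little. Over all genes 6.7% were higher and 4.13% lower. Of 34 epithelial genes 1 (2.94%) was higher and 1 (2.94%) lower. Of 30 endothelial genes 1 (3.33%) was higher and 2 (6.67%), Erg (-1.10) and Fli1 (-0.66), were lower. Of 21 neuronal genes 3 (14.3%) were higher, among them Tubb3 (0.85) and Map2 (0.39). Without the third vehicle library 0 neuronal genes were higher, and 1 without the first vehicle library or without the second or the third knockout library. Of 80 cytosolic ribosomal protein genes 7 (8.75%, beside 6.7% of all genes) were higher, 2 without the second knockout or the third vehicle library and 4 without the first vehicle library. The largest change with any vehicle reads was that of Rpl39l, the germ cell copy of a large subunit gene, at 23.2, 29.2 and 23.6 CPM against 0.433, 0.0321 and 0.363 CPM (6.66, SE 0.45, adjusted p = 6.46e-07). Rpl10l, another such copy, was at 0.548, 0.787 and 1.01 CPM against 0, at least 18.3-fold higher. Wnt16 was at 1.19, 1.03 and 1.42 CPM in the knockout, 0.309, 0.225 and 0.161 CPM in vehicle and a mean of 4.06 CPM in control; it was higher than vehicle by 2.40 and lower than control by -1.73 (adjusted p = 0.0312).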
